A study of Mus musculus with 9 samples.

Results

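Glycolysis and the response to low oxygen were followed through 34 genes in mouse embryonic stem cells (ESCs) with mutations of *Rbbp4*. The members were a list of gene symbols written from what the genes are known to do, with earlier results of these data known. Their rows were taken from the count tables by symbol. All 34 were found among the 25239 symbols of the tables, and 33 of them passed the filter on low counts together with 14125 genes in all. The gene that did not pass was *Car9*, the carbonic anhydrase IX gene, which held 2 to 11 reads per library. The list holds 17 genes of glucose uptake and glycolysis, 7 genes that handle pyruvate and lactate or control the flux, and 10 genes of the hypoxia response.

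The study asked how mutations of RBBP4 alter transcription in ESCs. The control was the E14 line, a mouse ESC line (strain 12910la, genotype Rbbp4+/+), and the mutants were *Rbbp4* Ins/Ins (below, Ins/Ins), which carries a short insertion in frame on each of its alleles, and *Rbbp4* Ins/Del (below, Ins/Del), in which an allele has that insertion and the other an in-frame deletion. RNA was sequenced from 3 libraries per line, 9 in all. Each mutant line is 1 clone made by CRISPR-Cas9 editing of E14 cells, so an effect of the mutation and a trait of the clone cannot be told apart. All lines were grown in Glasgow Minimum Essential Medium with 15% fetal bovine serum and leukemia inhibitory factor. The oxygen level of the incubator, the age of the medium and the cell density at harvest were not given in the sources used here. Nothing says whether the 3 libraries of a line came from separate cultures, so p-values measure only the spread between these libraries, which may be technical.

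Glycolysis turns glucose into pyruvate through a fixed series of enzymes, and most steps are served by isozymes, separate genes whose products do the same reaction with different regulation. Glucose enters through transporters of the SLC2A family, and pyruvate either goes to mitochondria through the pyruvate dehydrogenase complex or is reduced to lactate, which leaves through SLC16A transporters. When oxygen is low, the prolyl hydroxylases of the EGLN family stop marking HIF alpha subunits for degradation. HIF with its partner ARNT then raises transcription of many glycolytic genes and of *Vegfa*, *Bnip3*, *Ddit4*, *Egln1* and *Egln3*. Mouse ESCs rely strongly on glycolysis. RBBP4 is a histone-binding subunit of several chromatin complexes, among them PRC2, NuRD and CAF-1.

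HIF binds DNA at a short core, spelled ACGTG or GCGTG and searched here on both strands, and 6 promoters are shown so that the sequence upstream of members with different responses can be compared. Each is the 250 bases before the RefSeq start in GRCm38.p6 (the mm10 build), written 5′ to 3′ in the direction of the gene. The capitals mark every match to the core on either strand, and a core read as CACGTG, which is also the E-box bound by Myc-type factors, counts on both strands. *Slc2a1* is at chr4:119108495-119108744 on the plus strand, *Pfkp* at chr13:6648772-6649021 on the minus strand, *Ldha* at chr7:46845554-46845803 on the plus strand, *Ldhb* at chr6:142507958-142508207 on the minus strand, *Bnip3* at chr7:138909507-138909756 on the minus strand and *Ddit4* at chr10:59951771-59952020 on the minus strand.
Slc2a1: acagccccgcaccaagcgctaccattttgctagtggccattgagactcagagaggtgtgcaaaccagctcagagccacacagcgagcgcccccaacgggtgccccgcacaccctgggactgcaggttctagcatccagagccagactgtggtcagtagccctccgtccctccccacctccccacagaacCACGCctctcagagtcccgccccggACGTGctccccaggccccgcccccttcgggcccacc
Pfkp: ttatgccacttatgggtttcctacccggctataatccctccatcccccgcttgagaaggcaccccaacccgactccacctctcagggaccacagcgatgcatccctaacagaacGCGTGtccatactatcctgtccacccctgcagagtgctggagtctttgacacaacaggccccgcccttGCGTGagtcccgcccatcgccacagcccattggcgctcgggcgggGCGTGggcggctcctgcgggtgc
Ldha: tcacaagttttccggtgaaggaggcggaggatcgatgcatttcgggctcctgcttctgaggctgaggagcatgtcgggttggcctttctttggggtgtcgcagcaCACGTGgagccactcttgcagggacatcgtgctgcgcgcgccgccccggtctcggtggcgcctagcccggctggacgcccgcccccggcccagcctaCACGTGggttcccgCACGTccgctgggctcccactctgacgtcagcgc
Ldhb: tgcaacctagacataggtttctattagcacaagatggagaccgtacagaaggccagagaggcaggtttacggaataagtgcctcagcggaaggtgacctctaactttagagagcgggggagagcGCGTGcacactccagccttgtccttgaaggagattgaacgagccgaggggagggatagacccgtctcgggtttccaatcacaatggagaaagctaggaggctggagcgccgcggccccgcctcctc
Bnip3: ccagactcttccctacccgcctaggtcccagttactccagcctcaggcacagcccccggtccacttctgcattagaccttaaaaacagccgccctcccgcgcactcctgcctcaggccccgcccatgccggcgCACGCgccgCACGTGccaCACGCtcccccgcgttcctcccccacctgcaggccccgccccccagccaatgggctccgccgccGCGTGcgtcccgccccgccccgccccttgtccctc
Ddit4: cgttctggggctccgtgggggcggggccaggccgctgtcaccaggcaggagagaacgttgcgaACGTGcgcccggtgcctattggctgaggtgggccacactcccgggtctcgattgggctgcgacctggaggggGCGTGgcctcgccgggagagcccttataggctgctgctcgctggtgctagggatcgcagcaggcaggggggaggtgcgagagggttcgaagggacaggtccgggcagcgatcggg

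*Ldha* and *Bnip3* had the most matches of these, 5 each, with CACGTG at 2 places in *Ldha* and 1 in *Bnip3*. *Pfkp* had 3, *Slc2a1* and *Ddit4* 2 each, and *Ldhb* 1. Of the 34 members, 32 were matched in the promoter table (not *Slc2a3* and *Ndrg1*), and 26 of the 32 promoters (81.2%) held the core. The core stood in 54.8% of the 14196 promoters of tested genes and in 38.6% of all 32851 promoters of the table. The members' promoters were also richer in G and C, with a median of 63.4% against 59.6% and 52.4%, and the part of base composition in the share was not tested. Within the hypoxia response, 8 of 9 matched promoters held it, and *Vegfa* was the exception. Only 1 promoter was searched per member, although some members had more in the promoter table, such as *Vegfa* with 2. A match is only these letters in this window.

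The libraries held 15838064 to 21366868 counted reads. *Rbbp4*, the targeted gene, had 9932 to 10117 normalized counts in the control, 5485 to 5776 in Ins/Ins and 10129 to 10603 in Ins/Del, so its RNA was lower in Ins/Ins (log2 fold change -0.84, SE 0.029, edgeR adjusted p = 1.8e-25) and did not pass in Ins/Del (0.05, adjusted p = 0.11). The in-frame mutations need not change the count, so it does not check the Ins/Del label. The 10 ESC markers were all present, and their summed level was 99405 to 104100 in the control, 123071 to 124906 in Ins/Ins and 122836 to 125562 in Ins/Del. Marker sums of other cell types were small beside this. The 5 neural markers summed to 3379 to 3464, 1440 to 1566 and 1761 to 1796 in the same order, the 5 markers of 2-cell-like cells to 724 to 745, 1875 to 1991 and 2643 to 2814, the 8 feeder fibroblast markers to 604 to 692, 275 to 305 and 382 to 408, the 7 primitive endoderm markers to 345 to 379, 192 to 257 and 272 to 308, and the 4 mesendoderm markers to 241 to 265, 325 to 351 and 275 to 295. The sums hide members that went both ways, of which those named here were chosen after their values were seen. Of the 5 tested fibroblast markers 3 were lower in both lines and 1 was higher in Ins/Ins and 2 in Ins/Del. The collagen gene *Col1a1* had 287 ± 21.3 normalized counts in the control and 17.0 ± 4.02 and 24.4 ± 0.122 in the mutants (SD, n = 3 each), and the log2 fold changes of *Col1a2* and *Col3a1* were -5.28 and -4.76, and -5.31 and -4.78. *Thy1*, which makes up most of the mutant sums, went the other way, from 45.7 ± 1.10 to 246 ± 13.4 and 312 ± 12.8. Of the 5 neural markers 3 were lower and 1 was higher in each line, with *Nes* at 1744 ± 27.8, 230.3 ± 24.9 and 205 ± 18.8, *Pax6* with log2 fold changes of -3.19 and -4.50, and *Tubb3* at 472 ± 34.6, 967 ± 55.7 and 1295 ± 29.7. The primitive endoderm and mesendoderm lists also held both higher and lower members in each line, while all 5 markers of 2-cell-like cells were higher in both. At least 1 read of every marker was found in each line except for 1 primitive endoderm marker, which was at 0 in the control. In bulk RNA fewer cells of a type and less RNA per cell cannot be told apart, and the part of these shifts in the members' changes was not tested.

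More members were lower than higher in both mutant lines. In Ins/Ins, 19 of the 33 tested members (57.6%) were lower than in the control and 4 (12.1%) were higher, where 29.4% of all tested genes were called lower and 29.0% higher (edgeR's quasi-likelihood test, Benjamini-Hochberg adjusted p of at most 0.01 over all 14125 genes). In Ins/Del, 20 (60.6%) were lower and 5 (15.2%) higher, against 31.9% and 30.6% of all genes. The median log2 fold change of the members was -0.23 in Ins/Ins and -0.31 in Ins/Del, and that of all tested genes was 0.00 and -0.01. The median absolute log2 fold change was 0.26 and 0.51 for the members and 0.30 and 0.34 for all tested genes. All 34 members together took 1.62% ± 0.0333 of the counted reads in the control, 1.35% ± 0.0150 in Ins/Ins and 1.29% ± 0.0141 in Ins/Del (SD, n = 3 each), and no mutant library reached the lowest control library. The genes of pyruvate, lactate and flux control took 0.2063% ± 0.00572, 0.1985% ± 0.00138 and 0.2041% ± 0.00153 (SD, n = 3 each). For these genes the Ins/Del libraries lay within the control range. The libraries of 4 members lay wholly above and those of 19 wholly below the control in Ins/Ins, where 34.9% and 34.2% of all tested genes did so, and in Ins/Del 5 lay above and 21 below, against 35.9% and 36.9%. Both comparisons use the same 3 control libraries.

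**Figure D1:**
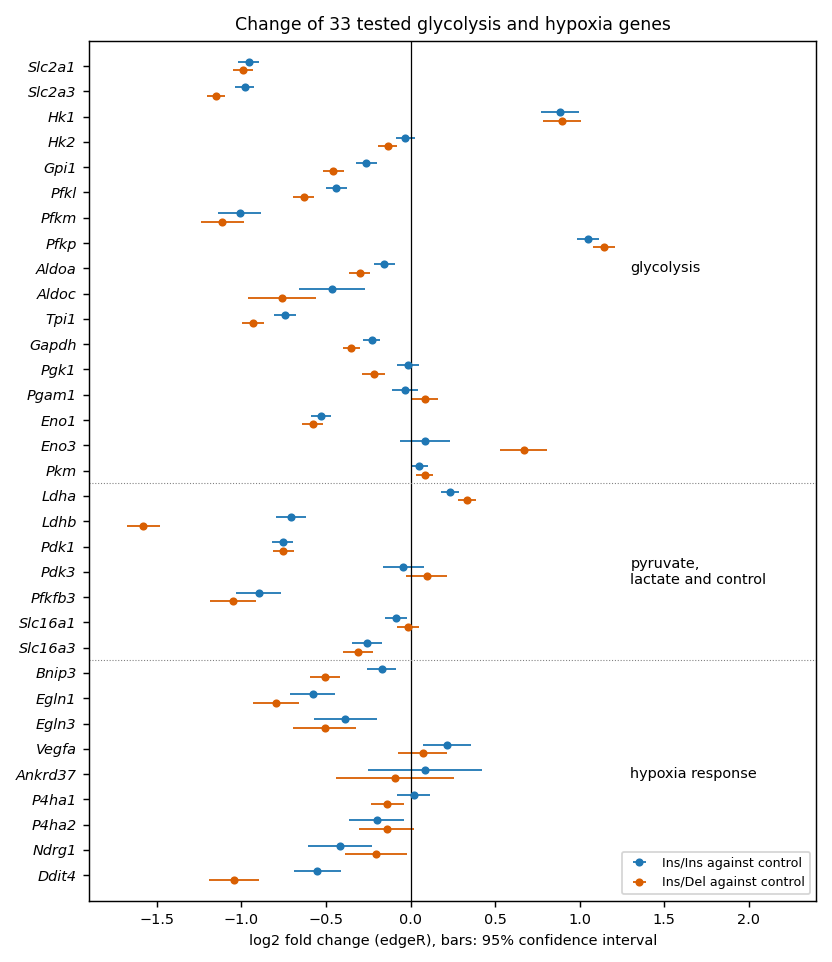
The log2 fold change of each of the 33 tested members is plotted on the horizontal axis for Ins/Ins (blue) and Ins/Del (orange) against the control, with bars for the 95% confidence interval of the edgeR fit and dotted lines between the groups of genes. *Slc2a1*, *Slc2a3*, *Pfkm* and *Pfkfb3* lie near -1, *Pfkp* and *Hk1* near 1, and *Ldhb* reaches -1.58 in Ins/Del.

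Both glucose transporters fell, and their summed level per kilobase of exon in the mutants was 0.511 and 0.476 of that in the control. *Slc2a1* encodes GLUT1, the widely expressed transporter. *Slc2a1* stood at 17896, 17179 and 17273 normalized counts in the control, 8628, 8906 and 9438 in Ins/Ins and 8920, 8495 and 8939 in Ins/Del. *Slc2a3* encodes GLUT3, a transporter with high affinity for glucose. *Slc2a3* stood at 39286, 37418 and 38274 normalized counts in the control, 19288, 18909 and 20056 in Ins/Ins and 17152, 17485 and 17103 in Ins/Del. For both genes every mutant library lay far below every control library. The log2 fold changes of *Slc2a1* were -0.96 (SE 0.030) and -0.99 (SE 0.030) in Ins/Ins and Ins/Del (edgeR, adjusted p = 1.1e-26 and 2.7e-27). Those of *Slc2a3* were -0.98 (SE 0.027) and -1.15 (SE 0.027) (edgeR, adjusted p = 7.5e-29 and 3.3e-31). The sum of the pair per kilobase was 10267 ± 236 normalized counts in the control and 5245 ± 187 and 4886 ± 43.1 in the mutants (SD, n = 3 each). *Slc2a1* lies at chr4:119108711-119137983 and *Slc2a3* at chr6:122727809-122801640, beside neighbours within 5 Mb whose median log2 fold changes were 0.07 to 0.12.

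The hexokinases, which trap glucose in the cell by phosphorylation, split. *Hk1*, the isozyme of most tissues, rose. *Hk1* stood at 516, 548 and 500.2 normalized counts in the control, 992, 940.0 and 948 in Ins/Ins and 934, 979 and 998 in Ins/Del. The mutant libraries held every high value, and the log2 fold changes were 0.88 (SE 0.054) and 0.90 (SE 0.055) (edgeR, adjusted p = 2.5e-17 and 1.3e-17). *Hk2*, the inducible isozyme, made up most of the hexokinase RNA. *Hk2* stood at 11215, 11196 and 11545 normalized counts in the control, 10844, 10998 and 11420 in Ins/Ins and 10377, 10020 and 10502 in Ins/Del. The Ins/Ins libraries overlapped the control (log2 fold change -0.03, 95% interval -0.09 to 0.03), and those of Ins/Del lay just below it (-0.14 (SE 0.028), edgeR, adjusted p = 4.9e-05). The *Hk1* share of the pair, counted per exonic length, was 3.12% ± 0.184 in the control, 5.72% ± 0.271 in Ins/Ins and 6.19% ± 0.24 in Ins/Del (SD, n = 3 each), so the sum of both changed little, to 1.01 and 0.940 of the control.

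Phosphofructokinase, the main regulated step of glycolysis, showed the widest split between isozymes. *Pfkp*, the platelet type, rose. *Pfkp* stood at 2777, 2974 and 2892 normalized counts in the control, 6131, 5822 and 5936 in Ins/Ins and 6499, 6196 and 6385 in Ins/Del. Its lowest mutant library, at 5822, was far above its highest control library, at 2974 (log2 fold changes 1.05 (SE 0.033) and 1.14 (SE 0.032), edgeR, adjusted p = 5.4e-27 and 2.4e-28). *Pfkm*, the muscle type, fell. *Pfkm* stood at 831, 855 and 794 normalized counts in the control, 432, 389 and 405 in Ins/Ins and 355, 388 and 405 in Ins/Del. No mutant library came near the control (log2 fold changes -1.01 (SE 0.062) and -1.11 (SE 0.063), edgeR, adjusted p = 1.8e-17 and 1.1e-18). *Pfkl*, the liver type and the most abundant of the 3 per length, fell less. *Pfkl* stood at 8616, 8689 and 8044 normalized counts in the control, 6348, 6212 and 6156 in Ins/Ins and 5637, 5350 and 5384 in Ins/Del. Here too the groups did not overlap, with log2 fold changes of -0.44 (SE 0.031) and -0.63 (SE 0.031) (edgeR, adjusted p = 1.3e-15 and 1.6e-20). Summed per kilobase, the 3 isozymes came to 0.869 and 0.814 of the control. The *Pfkp* share went from 12.4% ± 0.575 to 29.6% ± 0.264 and 33.7% ± 0.215. The *Pfkm* share went from 14.3% ± 0.0693 to 8.14% ± 0.271 and 8.15% ± 0.66 (SD, n = 3 each). Without division by length, the *Pfkp* share was 23.7%, 47.3% and 52.1% in the control, Ins/Ins and Ins/Del. The *Pfkl* share was then 69.5%, 49.5% and 44.7%, so the order of both in Ins/Del depends on the exonic lengths used. The sum depends on these lengths too. *Pfkm* overlaps the same-strand gene Gm26513 over 10.2% of its exonic length and *Pfkp* overlaps *Pitrm1* on the opposite strand over 5.58%, and the strand setting of the counting was not given in the sources used here.

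*Pfkfb3* makes fructose-2,6-bisphosphate, the strongest activator of phosphofructokinase. *Pfkfb3* stood at 1333, 1200 and 1357 normalized counts in the control, 648, 668 and 779 in Ins/Ins and 615, 556 and 721 in Ins/Del. Its 2 groups of mutant libraries overlapped each other and stayed below the control, with log2 fold changes of -0.90 (SE 0.065) and -1.05 (SE 0.066) (edgeR, adjusted p = 3.3e-15 and 4.1e-17). The neighbours of *Pfkfb3* within 5 Mb were low as well, with medians of -0.38 and -0.42, and their part in the change was not tested.

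**Figure D2:**
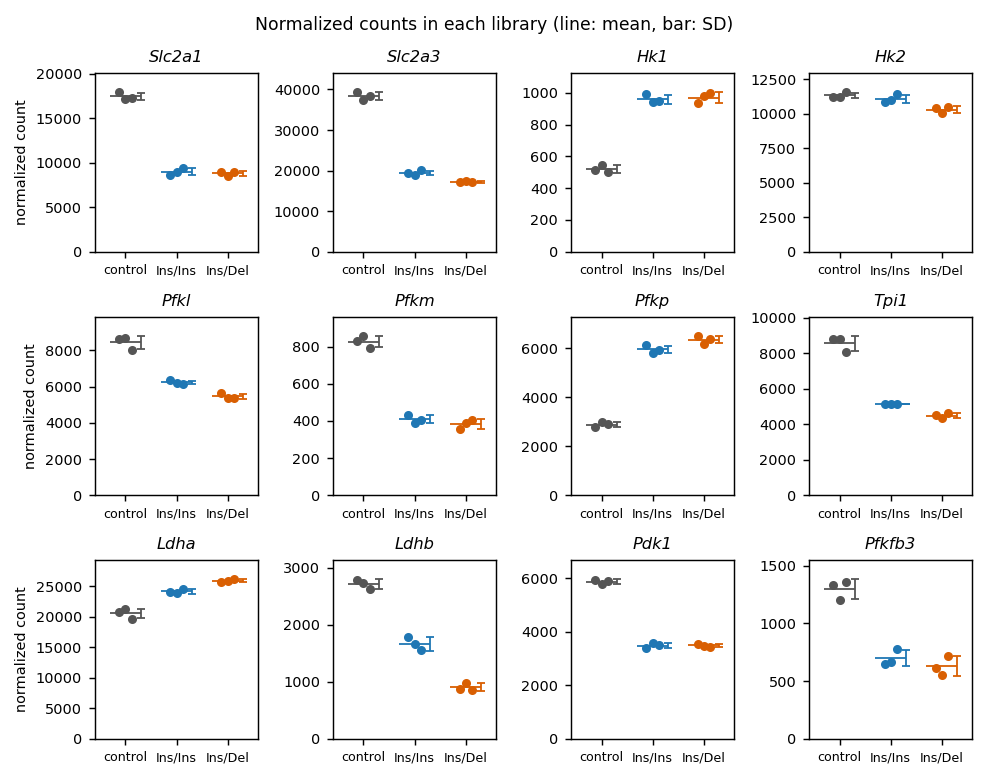
Normalized counts of 12 members are plotted on vertical axes that start at 0, with a point for each library, a line for the mean and a bar for the SD of the 3 libraries of the control (grey), Ins/Ins (blue) and Ins/Del (orange). In the panels of *Hk1*, *Pfkp* and *Ldha* the mutant points sit above the control, in that of *Hk2* the lines are close, and in the others the mutant points sit below.

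The enzymes between phosphofructokinase and pyruvate kinase were mostly lower, by less than the transporters. *Gpi1*, which makes fructose-6-phosphate one step before phosphofructokinase, went from 8620 to 9297 normalized counts in the control to 7250 to 7605 and 6295 to 6596 in the mutants (log2 fold changes -0.26 and -0.46). *Tpi1*, triosephosphate isomerase, fell most. *Tpi1* stood at 8815, 8778 and 8084 normalized counts in the control, 5133, 5121 and 5110 in Ins/Ins and 4502, 4350 and 4607 in Ins/Del. Its groups were well apart, with log2 fold changes of -0.74 (SE 0.032) and -0.93 (SE 0.032) (edgeR, adjusted p = 2e-22 and 1.2e-25). *Aldoa*, the main aldolase, went from 30303 to 33391 to 28136 to 30000 and 25706 to 26603, and its log2 fold changes were -0.15 and -0.30. *Aldoc*, a minor aldolase here with 0.797% of the pair per length in the control, had log2 fold changes of -0.47 (SE 0.096) and -0.76 (SE 0.100). *Gapdh*, which is often used as a reference gene, went from 36999 to 39332 to 32229 to 33021 and 29901 to 30150, with log2 fold changes of -0.23 (SE 0.025) and -0.35 (SE 0.026) (edgeR, adjusted p = 3.7e-10 and 3.1e-15). In all of these genes each mutant library was below every control library.

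*Pgk1*, phosphoglycerate kinase on the X chromosome, overlapped the control in Ins/Ins. *Pgk1* stood at 5431, 5380 and 5156 normalized counts in the control, 5279, 5077 and 5435 in Ins/Ins and 4618, 4415 and 4706 in Ins/Del. Its log2 fold change was -0.02 there (95% interval -0.08 to 0.05) and -0.22 (SE 0.032) in Ins/Del (edgeR, adjusted p = 1.7e-07). The median of the 531 tested X-linked genes was -0.20 in both comparisons. *Pgam1*, phosphoglycerate mutase, did not pass in either line, with 1974, 2100 and 1974 in the control, 2005, 1915 and 1978 and 2126, 2089 and 2205 in the mutants and 95% intervals of -0.11 to 0.04 and 0.01 to 0.16. *Gapdh*, *Pgk1*, *Pgam1*, *Tpi1*, *Aldoa*, *Eno1* and *Ldha* have processed pseudogenes with nearly the same sequence, which makes their counts less certain.

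The enolases, like the phosphofructokinases, moved apart. *Eno1*, the ubiquitous enolase, fell. *Eno1* stood at 16195, 16588 and 15268 normalized counts in the control, 11249, 10753 and 11290 in Ins/Ins and 10775, 10456 and 10962 in Ins/Del. The 6 mutant libraries were below every control library (log2 fold changes -0.53 (SE 0.030) and -0.58 (SE 0.030), edgeR, adjusted p = 1.3e-18 and 6.3e-20). *Eno3*, the muscle enolase, was far lower in level. *Eno3* stood at 316, 311 and 327 normalized counts in the control, 339, 352 and 320.3 in Ins/Ins and 508, 486 and 526 in Ins/Del. It overlapped the control in Ins/Ins (log2 fold change 0.08, 95% interval -0.07 to 0.23) and was above it in all libraries of Ins/Del (0.67 (SE 0.069), edgeR, adjusted p = 4.6e-11). Its share of the pair per length was 5.80% ± 0.375, 8.60% ± 0.568 and 12.8% ± 0.179 (SD, n = 3 each). The share leaves out *Eno1b*, an enolase gene outside the member list that was named after its values were seen. *Eno1b* had 1406 ± 95.7 normalized counts per kilobase in the control, against 2978 ± 126 for *Eno1*. The log2 fold changes of *Eno1b* were -0.50 and -0.60. *Pkm*, the pyruvate kinase of ESCs, had 55246, 54640 and 53312 normalized counts in the control, 56084, 56453 and 56729 in Ins/Ins and 58208, 56839 and 57777 in Ins/Del. The log2 fold changes were small, 0.05 (SE 0.024) with an edgeR adjusted p of 0.053, which did not pass, and 0.08 (SE 0.024) with 0.0027. Without Ins/Del replicate 1, without its replicate 3, or with total counts as the scale, the second missed the limit too. The edgeR adjusted p there ran from just above 0.01 to 0.012. *Pkm* overlaps the same-strand gene Gm49759 over 15.3% of its exonic length, which makes its counts less certain.

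On the lactate side the isozymes moved in opposite directions. *Ldha*, whose enzyme favours making lactate, rose. *Ldha* stood at 20772, 21241 and 19692 normalized counts in the control, 24058, 23940 and 24600 in Ins/Ins and 25721, 25918 and 26162 in Ins/Del. The 3 lines were in the same order with no overlap (log2 fold changes 0.23 (SE 0.027) and 0.33 (SE 0.027), edgeR, adjusted p = 7.2e-10 and 5e-14). *Ldhb*, whose enzyme favours turning lactate back to pyruvate, fell. *Ldhb* stood at 2780, 2730 and 2622 normalized counts in the control, 1777, 1653 and 1547 in Ins/Ins and 880.2, 979 and 854 in Ins/Del. It was lower in Ins/Ins than in every control library and lower again in Ins/Del, with log2 fold changes of -0.71 (SE 0.044) and -1.58 (SE 0.047) (edgeR, adjusted p = 2.8e-17 and 1.5e-27). The sum of both per kilobase was 1.05 and 1.06 of the control, and the *Ldhb* share of it was 21.8% ± 0.375, 12.6% ± 0.887 and 6.85% ± 0.48 (SD, n = 3 each).

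*Pdk1* encodes a kinase that shuts the pyruvate dehydrogenase complex. *Pdk1* stood at 5940, 5776 and 5893 normalized counts in the control, 3390, 3566 and 3485 in Ins/Ins and 3552, 3477 and 3433 in Ins/Del. The mutants overlapped each other and lay below the control (log2 fold changes -0.76 (SE 0.031) and -0.75 (SE 0.031), edgeR, adjusted p = 3.7e-23 and 3.6e-23). *Pdk3*, a related X-linked kinase, had 599.8 to 679.7, 598 to 670.3 and 663 to 726 normalized counts and did not pass, with 95% intervals of -0.16 to 0.08 and -0.02 to 0.22, so its share of the pair was 25.1% ± 1.29, 35.5% ± 1.10 and 37.7% ± 1.23 (SD, n = 3 each). Of the lactate transporters, *Slc16a3*, which encodes MCT4, a transporter of glycolytic cells, had log2 fold changes of -0.26 (SE 0.043) and -0.31 (SE 0.044) (edgeR, adjusted p = 2.4e-06 and 5.9e-08), going from 2457 to 2649 to 2086 to 2244 and 1890 to 2210. *Slc16a1*, which encodes MCT1, had 3618 to 3851, 3434 to 3552 and 3633 to 3716 and did not pass (edgeR, adjusted p = 0.021 and 0.7).

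**Figure D3:**
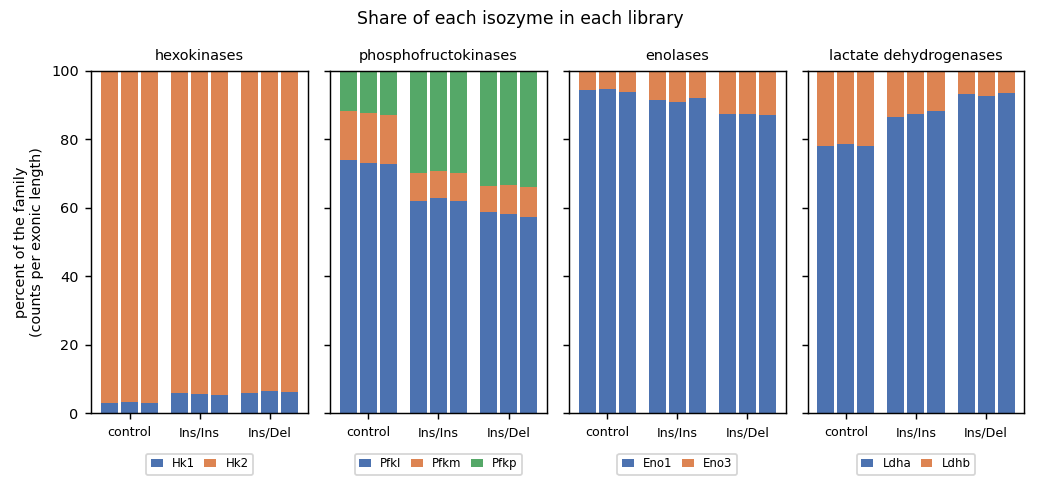
The vertical axis gives the percent of a family's normalized counts per exonic length that each isozyme held, stacked to 100, with 1 bar for each of the 9 libraries. The *Pfkp* part goes from about 12.4% in the control to 29.6% and 33.7% in the mutants, and the *Ldhb* part shrinks from 21.8% to 12.6% and 6.85%. The *Hk1* and *Eno3* parts grow within pairs of members that *Hk2* and *Eno1* dominate. Isozymes outside the member list, such as *Eno1b*, are not counted.

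The order of the levels per kilobase in the control, by exonic length over all annotated transcripts, was led by *Aldoa* (11100 ± 598 normalized counts per kilobase, SD, n = 3), *Pkm* (10878 ± 198) and *Gapdh* (9268 ± 288). *Aldoa* and *Pkm* did not differ beyond their spread, while *Gapdh* was lower than both. The overlap of *Pkm* with Gm49759 makes its rank less certain. *Ldha* followed with 6214 ± 239.8, then *Slc2a3* with 5290 ± 129 and *Slc2a1* with 4977 ± 111. In Ins/Del the same top ranks read *Pkm* (11519 ± 140.0), *Aldoa* (9011 ± 160.3), *Ldha* (7835 ± 66.7) and *Gapdh* (7269 ± 30.9), with the transporters at 2506 ± 71.6 for *Slc2a1* and 2380 ± 28.6 for *Slc2a3*. At the low end of the control stood *Ankrd37* (65.5 ± 17.3), *Ndrg1* (63.8 ± 10.5), *Hk1* (61.1 ± 2.85) and *P4ha2* (52.6 ± 4.28), of which the first 3 did not differ beyond their spread while *Ndrg1* and *Hk1* were above *P4ha2* in every library, and *Car9*, not tested, at 1.59 ± 0.986.

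In the hypoxia response, 5 of the 9 tested genes were lower and 1 higher in Ins/Ins, and 4 were lower in Ins/Del, where the other 5 were not called. Over all tested genes 29.4% were lower and 29.0% higher in Ins/Ins and 31.9% lower in Ins/Del, against 55.6%, 11.1% and 44.4% of these few genes. *Ddit4* encodes REDD1, an inhibitor of mTORC1 that is induced by stress. *Ddit4* stood at 1855, 1825 and 2238 normalized counts in the control, 1308, 1188 and 1537 in Ins/Ins and 878, 877 and 1129 in Ins/Del. Every mutant library was below every control library (log2 fold changes -0.55 (SE 0.070) and -1.04 (SE 0.073), edgeR, adjusted p = 7.6e-09 and 9.6e-16). *Bnip3* encodes a receptor for the removal of mitochondria. *Bnip3* stood at 2566, 2331 and 2717 normalized counts in the control, 2156, 2291 and 2327 in Ins/Ins and 1764, 1719 and 1885 in Ins/Del. It passed in both lines (log2 fold changes -0.17 (SE 0.043) and -0.51 (SE 0.044), edgeR, adjusted p = 0.00064 and 4.8e-13), but the highest Ins/Ins library, at 2327, was only just below the lowest control library, at 2331. In Ins/Ins, without control replicate 3 or Ins/Ins replicate 1 the edgeR adjusted p was 0.024 and 0.021 and the log2 fold change -0.11 and -0.12. *Bnip3* overlaps the opposite-strand gene Gm45507 over 22.2% of its exonic length.

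Of the oxygen sensors, both EGLN members of the list were called lower, while *Egln2*, which encodes PHD1 (log2 fold changes 0.05 and 0.01), and *Hif1an*, the asparagine hydroxylase FIH (0.02 and -0.11), were not called. *Egln2* and *Hif1an* were named after their values were seen. *Egln1* encodes PHD2, the main hydroxylase that marks HIF alpha in normal oxygen. *Egln1* stood at 906, 829 and 1006 normalized counts in the control, 602, 579 and 653 in Ins/Ins and 479, 512 and 590.1 in Ins/Del. The mutant and control libraries did not overlap (log2 fold changes -0.58 (SE 0.066) and -0.80 (SE 0.067), edgeR, adjusted p = 6.2e-10 and 2.2e-13). *Egln3* encodes PHD3, which HIF itself induces. *Egln3* stood at 1262, 1208 and 1766 normalized counts in the control, 1019, 934 and 1277 in Ins/Ins and 1002, 859.9 and 1121 in Ins/Del. Here a single library was high in the control and in Ins/Ins, and the Ins/Ins libraries overlapped the control. The log2 fold changes of -0.39 (SE 0.091) and -0.51 (SE 0.092) (edgeR, adjusted p = 0.00031 and 7e-06) were less firm. Without control replicate 3 they were -0.19 (adjusted p = 0.029) and -0.31, and with DESeq2 the adjusted p was 0.095 and 0.029. Summed per kilobase, the EGLN pair came to 0.732 and 0.663 of the control.

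*Vegfa*, the vascular growth factor, was the hypoxia gene called higher. *Vegfa* stood at 473, 494 and 541 normalized counts in the control, 587, 515 and 642 in Ins/Ins and 564, 492 and 529 in Ins/Del. The groups overlapped, and its log2 fold change of 0.22 (SE 0.070) in Ins/Ins (edgeR, adjusted p = 0.0071) missed the limit in 7 of the alternatives tried, with adjusted p of 0.012 to 0.092, among them those without control replicate 1 (0.17, 0.054), without control replicate 2 (0.22, 0.015), without Ins/Ins replicate 1 (0.22, 0.016) and without its replicate 3 (0.14, 0.092). In Ins/Del it was 0.07 (95% interval -0.07 to 0.22). *Ndrg1*, a stress-response gene that HIF induces, was lower in Ins/Ins. *Ndrg1* stood at 386, 376 and 500.2 normalized counts in the control, 290.0, 304 and 349.9 in Ins/Ins and 318, 367 and 408 in Ins/Del. Its log2 fold changes were -0.42 (SE 0.093) (edgeR, adjusted p = 0.00015) and -0.20 (SE 0.091), which did not pass (adjusted p = 0.044), and its neighbours within 5 Mb had medians of -0.42 and -0.34. Control replicate 3 was its highest library, and without it the log2 fold changes of *Ndrg1* were -0.27 (edgeR, adjusted p = 0.0088) and -0.06. The collagen prolyl hydroxylases *P4ha1* and *P4ha2* and the ankyrin repeat gene *Ankrd37* did not pass in either line. The 95% intervals were -0.08 to 0.12 and -0.24 to -0.04 for *P4ha1*, -0.36 to -0.04 and -0.30 to 0.02 for *P4ha2*, and -0.25 to 0.42 and -0.44 to 0.26 for *Ankrd37*. In Ins/Del, *P4ha1* (edgeR, adjusted p = 0.011) passed with total counts or without Ins/Del replicate 1. In Ins/Ins, *P4ha2* (edgeR, adjusted p = 0.028) passed without control replicate 1.

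Among the hypoxia response genes the library numbered 3 was most often the highest within every line. This was noticed after the values were seen, and the share over all tested genes was not counted. The library numbered 3 was the highest of the 3 libraries for 7 of the 9 tested genes in the control, for 8 in Ins/Ins and for 6 in Ins/Del. Its median deviation from the line's mean was 0.14, 0.15 and 0.17 on the log2 scale. Among the 17 glycolysis genes the library numbered 3 was the highest for 2, 6 and 10, with median deviations of -0.05, 0.00 and 0.03, and the difference between the groups of genes was not tested. The labels give no batch, day or culture for the numbers, and whether the libraries numbered 3 shared a condition was not tested. Without all 3 of them, 19 members were lower and 3 higher in Ins/Ins, and 20 were lower and 4 higher in Ins/Del. Their absence left *Ddit4*, *Bnip3*, *Egln1* and *Egln3* lower in both lines, with log2 fold changes of -0.56 and -1.07, -0.14 and -0.49, -0.56 and -0.81, and -0.34 and -0.41, and *Vegfa* and, in Ins/Del, *Pkm* no longer passed.

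**Figure D4:**
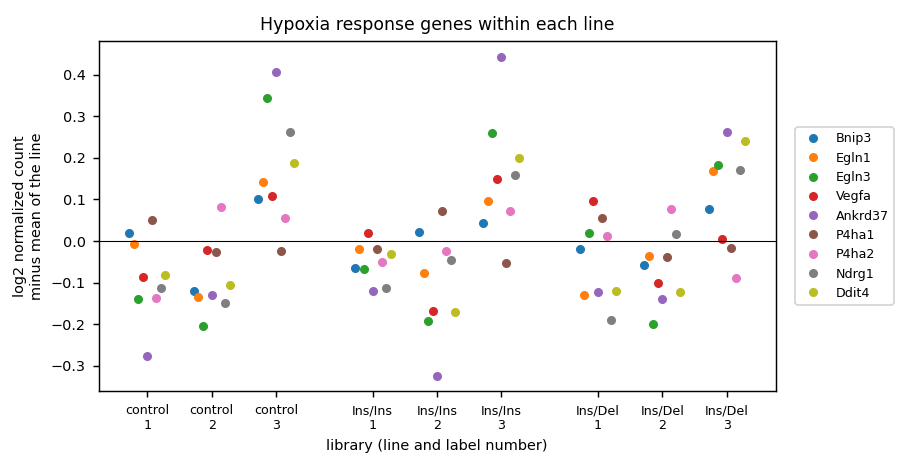
For the 9 tested hypoxia response genes, the vertical axis gives each library's log2 normalized count minus the mean of its line, and the horizontal axis gives the 9 libraries by line and label number, with 1 colour per gene and a small sideways shift to part the points. The points of the libraries numbered 3 lie mostly above 0, with medians of 0.14, 0.15 and 0.17 in the 3 lines.

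The mutant lines were also compared with each other. Ins/Del was lower than Ins/Ins for 11 members (33.3%) and higher for 2 (6.1%), where 4.64% of all tested genes were lower and 6.17% higher, and the members' median was -0.12 against 0.00 for all genes. That median was -0.07 without Ins/Ins replicate 3 and -0.14 without Ins/Del replicate 3, the range over all libraries left out. The median absolute log2 fold change was 0.14 for the members and 0.11 for all tested genes. Members with many reads passed at small differences, such as *Ldha* at 0.10. The Ins/Del libraries of 13 of the 33 tested members lay wholly below and those of 6 wholly above those of Ins/Ins, against 16.7% and 17.4% of all genes. The largest difference was that of *Ldhb* (-0.87 (SE 0.050), edgeR, adjusted p = 2.3e-16), followed by *Eno3* (0.59 (SE 0.069), adjusted p = 3.1e-08), *Ddit4* (-0.49 (SE 0.076), adjusted p = 6.6e-06) and *Bnip3* (-0.34 (SE 0.045), adjusted p = 3.8e-07). The values of these 4 genes in the 3 Ins/Del libraries did not overlap with those in Ins/Ins. *Gpi1*, *Pfkl*, *Tpi1*, *Pgk1*, *Slc2a3*, *Aldoa*, *Gapdh* and *Hk2* were lower by 0.11 to 0.20 on the log2 scale, and *Ldha* was higher by 0.10. The transporter *Slc2a1* did not pass (95% interval -0.10 to 0.03), nor did *Hk1* (-0.09 to 0.11), *Pfkm* (-0.24 to 0.04), *Eno1* (-0.11 to 0.01) or *Pdk1* (-0.06 to 0.07). *Ldha* (adjusted p = 0.0065) and *Hk2* (adjusted p = 0.0058) missed the limit in 6 alternatives each, with adjusted p of 0.015 to 0.037 and 0.013 to 0.071. These included *Ldha* without Ins/Ins replicates 1 or 2 or any Ins/Del replicate, and *Hk2* without Ins/Ins replicates 2 or 3 or Ins/Del replicates 1 or 2. *Egln1*, which did not pass here (adjusted p = 0.026), passed without Ins/Del replicate 3 (-0.30, adjusted p = 0.0046).

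Other genes of the same pathways were read from 4 lists. Of 36 other glycolytic isozymes and genes of pyruvate fate, 29 were tested, 9 higher and 7 lower in Ins/Ins and 9 higher and 8 lower in Ins/Del, with medians of 0.05 and 0.03. These are 31.0% and 24.1%, then 31.0% and 27.6%, near the 29.0% and 29.4%, then 30.6% and 31.9%, of all tested genes. *Fbp2*, a fructose-bisphosphatase that opposes phosphofructokinase, had 10.3, 7.33 and 3.25 normalized counts in the control, 71.8, 79.0 and 58.1 in Ins/Ins and 100.2, 112 and 106 in Ins/Del. It was low in the control and clearly higher in each mutant library (log2 fold changes 3.25 (SE 0.27) and 3.86 (SE 0.25), edgeR, adjusted p = 1.5e-13 and 6.1e-17). *Ldhc*, the testis lactate dehydrogenase, next to *Ldha* on chromosome 7, went from 14.5 to 30.3 to 44.0 to 48.8 and 54.2 to 69.4 (log2 fold changes 1.22 and 1.58), and *Slc16a7*, the monocarboxylate transporter MCT2, from 19.7 to 28.1 to 4.51 to 9.41 and 4.51 to 6.94 (-1.73 and -1.93). *Slc16a7* held only 4 to 26 reads per library.

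Of the 14 tested genes of the HIF machinery, 4 were higher and 5 lower in Ins/Ins, and 5 higher and 4 lower in Ins/Del. The shares, 28.6% and 35.7%, then 35.7% and 28.6%, were near those of all genes (29.0% and 29.4%, then 30.6% and 31.9%). *Hif1a*, the alpha subunit of HIF-1, fell. *Hif1a* stood at 3827, 3355 and 3613 normalized counts in the control, 2744, 2800 and 2836 in Ins/Ins and 2951, 2904 and 2865 in Ins/Del. The libraries did not overlap (log2 fold changes -0.37 (SE 0.037) and -0.31 (SE 0.037), edgeR, adjusted p = 2.4e-11 and 1.3e-09). *Epas1*, the alpha subunit of HIF-2, rose. *Epas1* stood at 786, 765 and 737 normalized counts in the control, 1239, 1361 and 1229 in Ins/Ins and 1789, 1725 and 1722 in Ins/Del. The 3 lines stood apart (log2 fold changes 0.74 (SE 0.048) and 1.19 (SE 0.047), edgeR, adjusted p = 1.7e-16 and 9.9e-24). *Arnt*, their partner, did not pass (95% intervals -0.03 to 0.12 and 0.00 to 0.15), and *Vhl*, the ubiquitin ligase subunit that binds hydroxylated HIF alpha, had log2 fold changes of 0.23 and 0.27 (edgeR, adjusted p = 0.0047 and 0.0011). *Hif3a*, another alpha subunit gene of the list, was lower, with log2 fold changes of -1.31 and -0.95 (edgeR, adjusted p = 1.6e-15 and 3.7e-12). *Hif3a* was named after its values were seen. HIF alpha is controlled mainly through its protein, which these counts do not measure.

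Of the 34 tested genes among the other HIF targets, 11 were higher and 16 lower in Ins/Ins, and 12 higher and 17 lower in Ins/Del, with medians of -0.23 and -0.35. In Ins/Ins that is 32.4% higher and 47.1% lower, and all tested genes gave 29.0% and 29.4%, then 30.6% and 31.9%. Of these, *Ero1l*, *Loxl2* and *Bnip3l* lie in a stretch of chromosome 14 where the neighbours within 5 Mb had medians of -0.85 to -1.18, and outside chromosome 14 the counts were 11 and 13, and 12 and 14, with medians of -0.10 and -0.09. Genes lower by over 1 on the log2 scale in each line were *Flt1*, a VEGF receptor (-2.97 and -3.89), *Bhlhe41* (-2.61 and -3.89) and *Bhlhe40* (-1.02 and -1.38), transcriptional repressors, the matrix cross-linking enzyme *Lox* (-2.83 and -2.44), the peptide hormone *Adm* (-1.17 and -1.75), the growth factor *Pgf* (-1.68 and -1.89), the lipoprotein receptor *Vldlr* (-1.02 and -1.35), and, on chromosome 14, *Loxl2* (-1.64 and -1.64), *Bnip3l* (-1.23 and -1.40) and *Ero1l* (-1.15 and -1.17). *Hmox1*, heme oxygenase, was the one higher by over 1 in each line. *Hmox1* stood at 1839, 1693 and 1796 normalized counts in the control, 3930, 3996 and 4276 in Ins/Ins and 4897, 4932 and 5135 in Ins/Del. Its log2 fold changes were 1.19 (SE 0.037) and 1.49 (SE 0.037), and no library of a mutant overlapped the control.

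Of 8 genes of glucose sensing by MondoA and of regulation by Myc, which drives glycolytic genes in many cells, 3 were higher and 4 lower in Ins/Ins, and 4 higher and 2 lower in Ins/Del, where all tested genes gave 29.0% and 29.4%, then 30.6% and 31.9%. *Txnip*, an inhibitor of glucose uptake that glucose induces through MondoA, rose. *Txnip* stood at 2975, 2864 and 2753 normalized counts in the control, 5584, 5372 and 5238 in Ins/Ins and 5931, 6118 and 5713 in Ins/Del. The mutant libraries were all above the control (log2 fold changes 0.91 (SE 0.034) and 1.05 (SE 0.034), edgeR, adjusted p = 2.7e-24 and 2.2e-26). *Mlxipl*, which encodes the MondoA relative ChREBP, had 80.1 to 82.8, 222 to 259 and 271 to 285 (log2 fold changes 1.57 and 1.76). *Mycn*, the Myc family gene of ESCs with the most reads in this list, fell. *Mycn* stood at 5699, 5505 and 5457 normalized counts in the control, 2351, 2299 and 2313 in Ins/Ins and 1684, 1613 and 1631 in Ins/Del. The 3 lines were apart, with log2 fold changes of -1.26 (SE 0.032) and -1.76 (SE 0.034) (edgeR, adjusted p = 1.1e-29 and 8e-34).

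**Figure D5:**
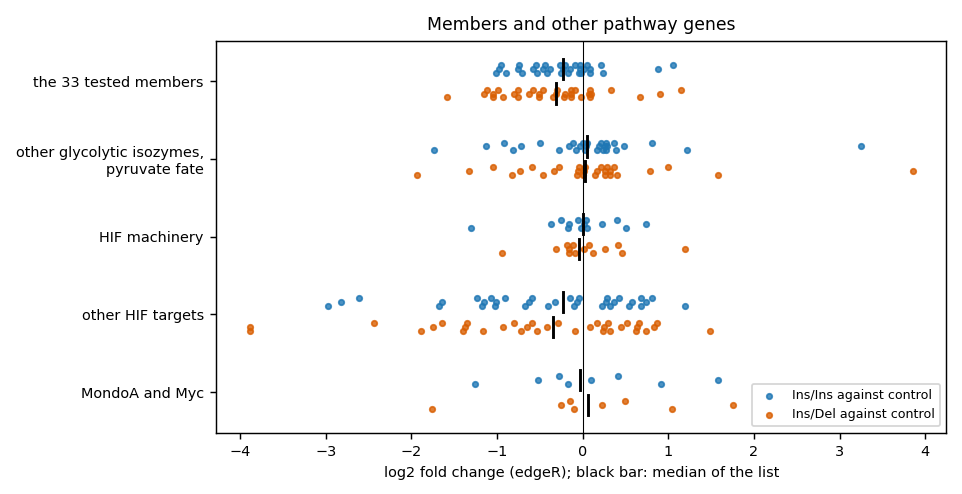
The horizontal axis gives the log2 fold change of each tested gene against the control in Ins/Ins (blue) and Ins/Del (orange), by list, and the black bars mark the median of each list. The 33 members are centred on -0.23 and -0.31, and *Fbp2*, *Flt1* and *Bhlhe41* lie farthest out in their lists.

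The members lie on 15 chromosomes, chromosome 14 not among them, and the medians of the chromosomes that hold them ran from -0.20 to 0.06 in Ins/Ins and from -0.20 to 0.03 in Ins/Del. The median of the neighbours within 5 Mb of a member ran from -0.43 to 0.19 and from -0.43 to 0.30. *Hk1*, *P4ha1* and *Ddit4* share a part of chromosome 10 with neighbour medians near 0.19 and 0.29, and *Hk1* rose and *Ddit4* fell there.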

How the data were processed

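Total RNA was converted to Kapa mRNA HyperPrep libraries and sequenced as paired ends. The authors mapped the reads to mm10 with STAR 2.7.3, and HTSeq gave the deposited values, raw counts of reads on each gene symbol. The HTSeq version, strand setting and annotation were not given in the sources used here, so genes that overlap or have near copies are less certain. The members and lists were chosen with earlier results of these data known.

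Libraries were grouped by genotype label. With edgeR 4.0.16 (R 4.3.3), TMM factors were computed, genes were filtered with filterByExpr, and the quasi-likelihood model was fitted to all 9 libraries with 3 groups. Benjamini-Hochberg adjustment ran over 14125 genes, with a limit of 0.01. A normalized count is the count scaled to the mean effective library size. Positions and exonic lengths came from GENCODE M21 and promoters from RefSeq, both on GRCm38. Fits were tested on simulated data.

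Named were all members, *Rbbp4*, genes of the other lists called in both mutants in 1 direction with an absolute log2 fold change over 1 in each, and *Hif1a*, *Epas1*, *Arnt*, *Vhl* and *Txnip*. The alternatives were DESeq2 1.42.0, its size factors in edgeR, total counts, no filter beyond 1 read, only the groups compared, the replicate block, each library left out, a limit of 0.05 and, for isozyme shares, no division by length. Leaving out the libraries numbered 3, and the HIF targets without chromosome 14, were chosen after seeing the data. Isozyme shares, promoter matches and medians are descriptions with no test.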

Additional observations from a re-analysis of the deposited data

Results flagged for a closer look

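For 13 members the change from the control differed between the 2 mutant clones, by the test of the difference itself (edgeR's quasi-likelihood test of Ins/Del against Ins/Ins, adjusted p of at most 0.01). The log2 difference, Ins/Del minus Ins/Ins, was -0.87 for *Ldhb*, 0.59 for *Eno3*, -0.49 for *Ddit4* and -0.34 for *Bnip3*. It was -0.20 for *Pgk1*, -0.20 for *Gpi1*, -0.19 for *Pfkl*, -0.19 for *Tpi1*, -0.17 for *Slc2a3*, -0.15 for *Aldoa*, -0.12 for *Gapdh*, -0.11 for *Hk2* and 0.10 for *Ldha*. They were 11 lower and 2 higher, where 4.64% of all tested genes were called lower and 6.17% higher. Over all tested members, the median absolute log2 difference was 0.14, against 0.11 for all tested genes. Each line is 1 clone, so a difference between the mutations and between the clones cannot be told apart.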

How the results depend on the processing

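Over the 1683 values of single members recomputed under an alternative, 1636 kept their direction and their side of the limit, 29 lost the call, 18 gained it and none changed direction while called. Those lost under edgeR, DESeq2 or another scale were among *Vegfa*, *Egln3*, *Bnip3*, *Pkm*, *Ddit4*, *Hk2* and *Ldha*, and the cause was not tested. The members lower in Ins/Ins, Ins/Del and Ins/Del against Ins/Ins numbered 17 to 20, 20 to 21 and 10 to 12 when libraries were left out, and those higher 3 to 4, 4 to 6 and 1 to 2. At a limit of 0.05, 4 members were higher in Ins/Del than in Ins/Ins, against 2 at 0.01. The members' median log2 fold change ran from -0.24 to -0.19, from -0.37 to -0.28 and from -0.14 to -0.07, with -0.35 in Ins/Del without its replicate 1 and -0.37 without the libraries numbered 3 in all lines. With DESeq2, *Ddit4* missed the limit between the mutants (adjusted p = 0.022).

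Over all tested genes, deviations of same-numbered libraries of different lines correlated at -0.02 to 0.06. Those of other pairs correlated at -0.06 to 0.05, and 10 of 18 best matches had the same number. Pairs of libraries numbered 3 correlated at 0.06, 0.04 and 0.03, and whether the numbers pair the libraries was not tested. With the replicate block, 19 members were lower and 4 higher in Ins/Ins, 20 and 5 in Ins/Del, and 12 and 2 between the mutants, with medians of -0.23, -0.31 and -0.11, and *Egln1* passed between the mutants. Depth limits *Car9*, with 2 to 11 reads, and *Ankrd37*, with 73 to 133. *Ankrd37* also overlaps the opposite-strand gene *Lrp2bp* over 22.7% of its exonic length.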
